A study of Mus musculus with 2 samples.

Results

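Hepatocytes of the perivenous zone were followed in the regenerating mouse liver by scRNA-Seq 48 hours after partial hepatectomy (PHx), in which most of the organ is resected. In this assay a droplet barcode marks the transcripts of a droplet, and a unique molecular identifier (UMI) lets each captured transcript be counted once. The members were 186 barcodes of the 1586 in the PHx48h matrix, and of 60788 barcodes in the series. They were chosen by their measured mitochondrial and zonal UMI counts, in 3 steps. Barcodes with more than 30% of UMIs in the 13 mitochondrial genes were taken (765 of 1586). The zone share of each was computed as the UMIs of 7 perivenous genes (Glul, Cyp2e1, Cyp1a2, Oat, Slc1a2, Lect2 and Rhbg) in percent of those genes plus 8 periportal genes (Cyp2f2, Sds, Hal, Hsd17b13, Pck1, Ctsc, Ass1 and Asl). Of the 744 barcodes with at least 10 zone-gene UMIs, those at or above the 75th percentile of zone share were kept, and the 187 barcodes at or below the 25th percentile, the low-zone set, served as the comparison.

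The study compared hepatocytes from undamaged liver (0 h) with hepatocytes 48 h after PHx to learn how gene expression is divided among cells while the organ regrows. Both libraries came from C57BL/6 mice that the labels give as 10 to 12 weeks old. The methods of the study name male C57BL/6J mice and a somewhat younger age at surgery. Both libraries were prepared by 2-step collagenase perfusion and the 10X Genomics 3′ version 2 chemistry. There was 1 library per time point, each from 1 hepatocyte preparation, so that no difference between time points has a replicate check and no p-value is given. The intervals given with values are 95% counting intervals for the barcodes of 1 library and cover neither the mouse nor the preparation.

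Liver lobules are perfused from the portal vein towards the central vein. Perivenous hepatocytes, around the central vein, synthesise glutamine from ammonia that escaped the urea cycle, carry out much of the cytochrome P450 drug metabolism and make bile acids. Their program depends on Wnt/β-catenin signals from the endothelium of the central vein. Periportal hepatocytes, at the inflow, make glucose and urea and secrete much of the plasma protein.

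Members had a median of 3613 non-mitochondrial UMIs (1062 to 24651) and a median of 58.1% mitochondrial UMIs. The low-zone set was deeper, with a median of 6496 (1194 to 35712), and had 55.9% mitochondrial UMIs. The study left out barcodes with high mitochondrial content from its own analysis, whereas the members here all lie above a mitochondrial limit. A further 522 barcodes of the 48 h library had under 2% mitochondrial UMIs, at a median depth of 5271.5 non-mitochondrial UMIs. Those 522 barcodes are used below as a reference set, with a pooled zone share of 39.9%, and how much free RNA they or the members hold was not tested. Levels are given in CPM, counts of a gene per 1000000 non-mitochondrial UMIs, summed over the barcodes of a set. Of the 148 barcode sequences that occurred in both libraries, 20 were members, and 0 of these were among the undamaged barcodes with a zone share.

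The zone share at 48 h was concentrated at low values, with the 25th, 50th and 75th percentiles at 11.3%, 22.3% and 48.2%. In undamaged liver the same percentiles were 27.3%, 54.5% and 84.6%. The limit for membership at 48 h therefore lay below the median of the undamaged barcodes. The member closest to the limit had a zone share of 48.28% and the closest barcode outside had 48.24%, and 64 barcodes lay within 5 percentage points of the limit. The members are thus the upper end of a continuous range of zone share, and whether they form a cluster in other genes was not tested. Their pooled zone share was 71.6%, against 7.47% in the low-zone set, as a result of the rule. The 10 hepatocyte markers, among them Alb, Apoa1 and Ttr, made up 118526 CPM in members and 154367 CPM in the low-zone set. They also made up 114592 CPM in the low-mitochondrial reference, so this level does not by itself set members apart from those barcodes.

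**Figure D1:**
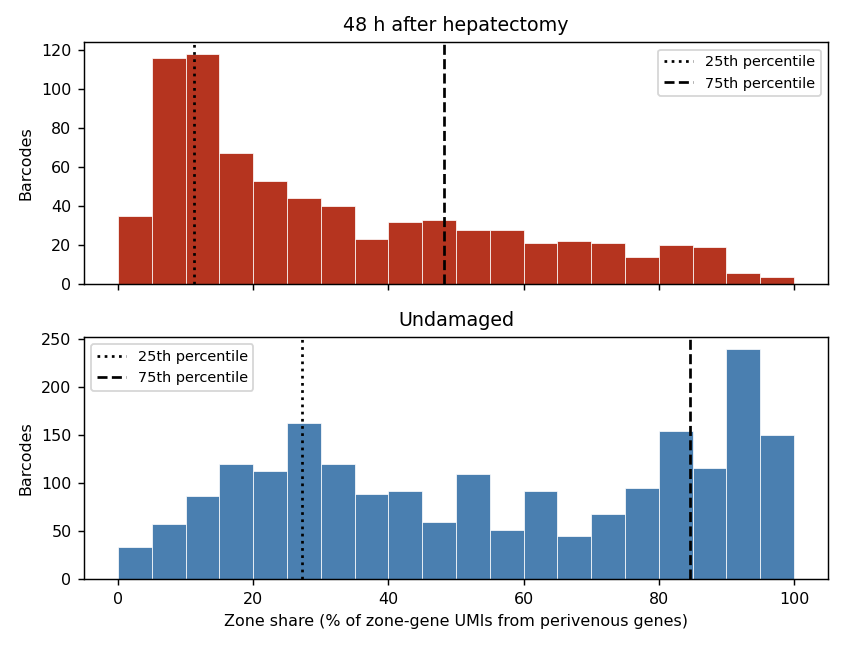
Histograms of the zone share, in percent of zone-gene UMIs, of the 744 barcodes used at 48 h (top) and the 2053 used in undamaged liver (bottom), in bins of 5 points. The dashed line marks the 75th percentile, 48.2% at 48 h and 84.6% in undamaged liver, and the dotted line the 25th.

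The genes that chose the members are described without a test. Cyp2e1, a P450 that oxidises ethanol and small solvents (chromosome 7, mm10 140763739 to 140774987), was at 2403 CPM in members and 130.3 CPM in the low-zone set. Oat, ornithine aminotransferase, was at 1984 and 186.5 CPM. Glul, glutamine synthetase (chromosome 1, 153899944 to 153909723), was at 647 and 40.3 CPM. Cyp1a2, a P450 induced through the aryl hydrocarbon receptor, was at 515.1 and 152.8 CPM, the smallest ratio of the 7 genes at 3.37. The glutamate transporter Slc1a2 (238.8 against 11.3 CPM) and the ammonium transporter Rhbg (79.6 against 1.78 CPM) were captured less often. Cyp2e1 supplied the largest number of perivenous UMIs in 104 members and Oat in 61, whereas Glul led in 6 and 15 were ties. With every barcode thinned to 1000 non-mitochondrial UMIs, a Cyp2e1 UMI was found in 90.9% of members, an Oat UMI in 78.5%, a Cyp1a2 UMI in 35.5% and a Glul UMI in 29.6%. In the low-zone set the thinned shares were 12.8%, 19.8%, 18.2% and 2.14%, and in the low-mitochondrial reference 52.9%, 65.7%, 18.6% and 14.8%. Without thinning, Glul was found in 49.5% of members and 26.2% of the low-zone set.

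The opposite set behaved as the rule requires. Sds, serine dehydratase of amino acid catabolism, was at 58 CPM in members and 650.2 CPM in the low-zone set. Hal, histidine ammonia-lyase, was at 40.9 and 335.8 CPM, and Cyp2f2, a periportal P450, at 172.8 and 1111 CPM. At 1000 UMIs per barcode, a Cyp2f2 UMI was found in 16.1% of members, 57.8% of the low-zone set and 33.5% of the low-mitochondrial reference, and an Sds UMI in 4.84%, 41.7% and 23.4%. At full depth Cyp2f2 was found in 47.8% of members and 86.8% of the reference, and Sds in 20.4% and 70.7%. The members' shares lay below the reference for both genes and are not read as expression.

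Zonal genes that were held out of the rule were then examined. Over all genes with at least 100 UMIs in both sets together (3079 genes, without mitochondrial and rule genes), 277 genes (9.0%) were at least 1.5-fold higher in members and 153 (4.97%) at least 1.5-fold lower. When levels were scaled to all UMIs, mitochondrial ones included, 109 were higher and 245 lower. The median log2 ratio, computed after adding 5 CPM to both levels, was 0.11. Against this background, 19 of 22 compared perivenous genes outside the rule were at least 1.5-fold higher in members and 0 were lower, with a median log2 ratio of 1.67. All 25 genes of that list together made up 24659.9 CPM in members and 13205 CPM in the low-zone set, 1.87-fold (1.83 to 1.90). In single members the summed level ran from 10526 to 37919 CPM with a median of 24152, and in the low-zone set from 8068 to 29801 with a median of 12864, so that the ranges overlapped. These genes and the rule genes were counted in the same barcodes, and the list describes the members rather than testing them.

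Several P450 enzymes were among the held-out perivenous genes with large ratios. Cyp2a5, the coumarin and nicotine hydroxylase, was counted 1775 times in members and 201 times in the low-zone set, 2018 against 119 CPM, a 17.0-fold ratio (14.6 to 19.7). At 1000 UMIs per barcode it was detected in 73.1% of members, 14.97% of the low-zone set and 40.6% of the low-mitochondrial reference. At full depth, where the reference was at 92.9%, it was detected in 92.5% of members, and the member with the most UMIs held 6.20% of its UMIs. Several genes of the Cyp2c family followed. Cyp2c29 was 9.79-fold higher (1931 against 197.2 CPM), Cyp2c54 8.62-fold, Cyp2c37 8.36-fold, Cyp2c67 7.02-fold and Cyp2c50 6.73-fold. These 5 genes lie on chromosome 19, are close relatives in sequence, and their division of reads is uncertain to the extent that the 3′ ends are alike. Cyp2a5 likewise has a near relative. The family did not move as 1 group, since Cyp2c70 was at 1.21-fold and Cyp2c44 at 0.68-fold. A separate list of other P450 genes was at 4888 against 4719 CPM in sum. Of 14 compared, 4 were higher and 1 lower, beside 9.0% of all genes higher and 4.97% lower. In the held-out perivenous list, Cyp3a11 (1.17-fold), Gstm1 (1.23-fold) and Gstm3 (1.20-fold) were the 3 of 22 compared genes under 1.5-fold.

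Of the 12 compared genes in the bile acid list 3 were higher in members and 1 lower, beside 9.0% of all genes higher and 4.97% lower. Their median log2 ratio was 0.11, the same as over all genes. Cyp7a1, the rate-limiting enzyme of bile acid synthesis, was at 485.5 CPM in members and 33.2 CPM in the low-zone set, 14.6-fold (11.1 to 19.7), and was detected at 1000 UMIs per barcode in 33.3% and 4.81% of barcodes, against 8.24% of the low-mitochondrial reference. Cyp27a1, the mitochondrial sterol hydroxylase, was 2.26-fold higher, and the bile acid and drug transporters Slco1b2 and Slco1a1 were 4.42-fold and 1.57-fold higher. Nr0b2, the repressor that dampens Cyp7a1, was lower at 35.3 against 66.9 CPM (0.53-fold). Abcb11, the bile salt export pump, was at 0.88-fold.

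The other genes with the largest ratios had varied functions. Lhpp, a phosphatase, was 18.2-fold higher (9.74 to 37.5) on 104 against 11 UMIs. Gulo and Rgn, which belong to ascorbate synthesis, were 8.22-fold and 7.27-fold higher. Csad, of taurine synthesis, was 6.58-fold higher, and the major urinary protein Mup17 6.43-fold, at 3417 against 531.8 CPM. Other Mup genes went the opposite way, with Mup20 at 0.47-fold and Mup3 at 0.62-fold. Mup genes are near-identical copies, so that their separate values are uncertain.

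The genes with the lowest ratios had varied functions, among them enzymes of amino acid metabolism. Sdsl, a relative of Sds, was counted 5 times in members and 154 times in the low-zone set. Gls2, the liver glutaminase (52.3 against 304.4 CPM), Gldc of glycine cleavage (33 against 132.7 CPM), Etnppl, Aspg and Aldh1b1 were all below 0.25-fold. Cdh1, E-cadherin, was at 18.2 against 177.1 CPM, Apoa4 of lipoproteins at 800.5 against 3468 CPM, and Hsd17b6 at 19.3 against 174.7 CPM. Slc3a1 and Mfge8 were at 0.11-fold and 0.22-fold. The biliary and injury marker Spp1 was counted 6 times in members and 132 times in the low-zone set, where 10 barcodes held at least 5 UMIs of cholangiocyte markers and 0 members did. Without barcodes rich in markers of any other cell type, cholangiocyte included, the Spp1 ratio moved from 0.087 to 0.18. Spp1 is itself on the cholangiocyte list, so both the barcode count and this move follow in part from Spp1 and are not read. Of 19 held-out periportal genes, 12 were at least 1.5-fold lower in members and 0 higher, beside 4.97% and 9.0% of all genes. The periportal list had a median log2 ratio of -1.49 and a summed level of 41108 against 73078 CPM. Igf1 (0.99-fold) and Uox (0.90-fold) were the closest to equal.

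**Figure D2:**
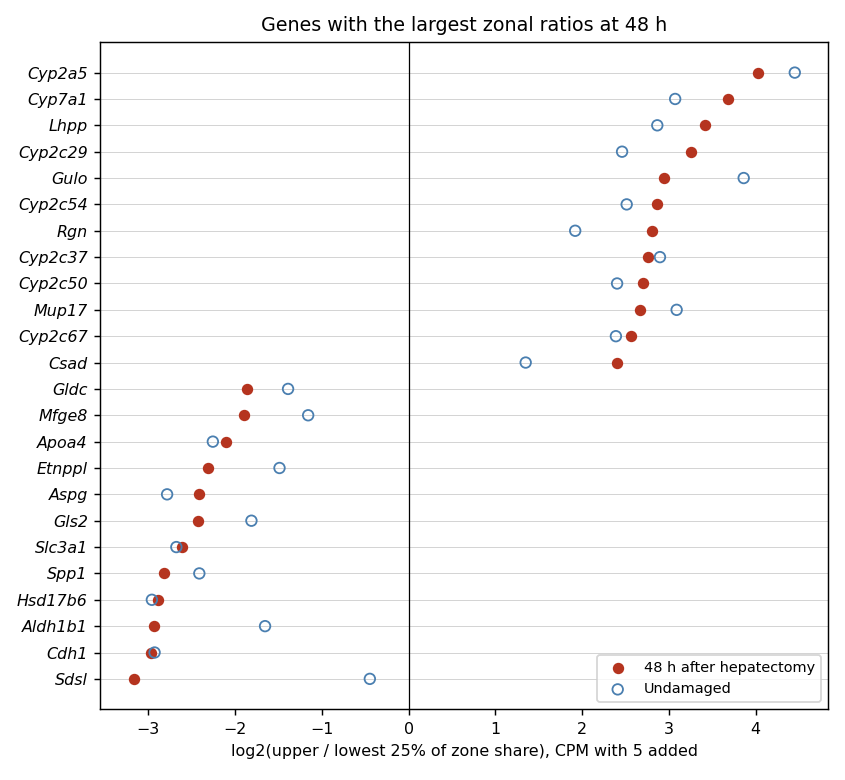
The 12 genes with the highest and the 12 with the lowest ratio of the upper to the low-zone set at 48 h, as log2 of CPM with 5 added (filled), and the same ratio in undamaged liver (open). Cyp2a5 lies at 4.03 at 48 h, and Sdsl, at -3.17 at 48 h, has an undamaged value of -0.45.

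Direct Wnt/β-catenin targets were rare but sided with the members. The 9 listed genes had 152 UMIs in members and 43 in the low-zone set, 172.8 against 25.5 CPM, 6.79-fold (4.81 to 9.76). None had the 100 UMIs needed for comparison on its own. Notum, a secreted Wnt inhibitor, had 45 against 18 UMIs, the transcription factor Tbx3 34 against 2, the ubiquitin ligases Rnf43 and Znrf3 29 against 15 and 12 against 4, and the receptor Lgr5 11 against 1. Axin2 and Sp5 had 5 UMIs each in members and 0 in the low-zone set. Tcf7 had 8 against 1 and Nkd1 3 against 2. In the 4 parts of the barcodes ranked by zone share, from lowest to upper, the summed level was 25.5, 35.2, 58.4 and 172.8 CPM, and it was 31.6 CPM in the low-mitochondrial reference. In undamaged liver the corresponding ratio was 6.06.

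TCF/LEF factors, the nuclear partners of β-catenin, bind a core of CTTTGAT. That string was searched on both strands (the reverse complement is ATCAAAG) in the 250 bases before the start of RefSeq transcripts on GRCm38.p6, the build called mm10. It occurred in 3.21% of 32851 promoters. Promoters were listed for 6 of the 7 perivenous rule genes, of which Slc1a2 and Lect2 held the string, for 7 of the 12 highest genes, of which Cyp2c29 held it, and for 9 of the 12 lowest genes, of which 0 held it. Of 5 Wnt target genes listed, Sp5 held it. The 3 windows of zonal genes with the string are shown, 5′ to 3′ on the strand of the gene, with the match in capitals. The string stands at base -207 from the start in Slc1a2 (chr2:102706188-102706437, plus strand), at -32 in Lect2 (chr13:56548539-56548788, minus strand) and at -119 in Cyp2c29 (chr19:39286835-39287084, plus strand).
Slc1a2: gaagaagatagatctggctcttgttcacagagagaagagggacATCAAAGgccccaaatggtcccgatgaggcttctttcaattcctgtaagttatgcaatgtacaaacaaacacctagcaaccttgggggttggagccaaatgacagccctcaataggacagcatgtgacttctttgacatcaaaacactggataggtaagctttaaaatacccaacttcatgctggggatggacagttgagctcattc
Lect2: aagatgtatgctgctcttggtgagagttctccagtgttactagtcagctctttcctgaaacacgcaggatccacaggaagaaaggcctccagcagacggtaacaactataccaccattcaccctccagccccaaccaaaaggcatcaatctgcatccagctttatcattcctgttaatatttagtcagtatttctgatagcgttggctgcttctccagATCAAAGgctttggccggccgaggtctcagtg
Cyp2c29: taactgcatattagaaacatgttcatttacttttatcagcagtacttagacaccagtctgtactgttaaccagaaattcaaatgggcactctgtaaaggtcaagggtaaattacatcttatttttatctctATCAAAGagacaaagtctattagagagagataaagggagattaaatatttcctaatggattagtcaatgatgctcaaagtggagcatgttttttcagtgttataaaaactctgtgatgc
A match describes the letters of these windows and is not a measured binding site.

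Cell cycle transcripts in sum were at similar levels in members and in the low-zone set, and the ratio depended on the mitochondrial limit. The 25 S phase genes (DNA replication and nucleotide supply) had 657 UMIs in members and 1249 in the low-zone set, 747.1 against 739.6 CPM, a ratio of 1.01 (0.92 to 1.11). Of the 7 S phase genes with enough UMIs 0 were at least 1.5-fold higher and 1 lower, beside 9.0% and 4.97% of all genes. The lower gene was Mcm5, a subunit of the replicative helicase, at 30.7 against 49.7 CPM. Rrm2, the small subunit of ribonucleotide reductase, was at 130.8 against 112.5 CPM (1.16-fold, 0.91 to 1.47) and Mcm6 at 1.31-fold. Pcna, the sliding clamp, was at 40.9 against 41.5 CPM. Without the barcodes carrying 5 or more marker UMIs of another cell type, the S phase log2 ratio moved from 0.014 to -0.17, and with a mitochondrial limit of 50% it was 0.29 (1.22-fold). The median level per barcode was 498.8 CPM in members and 437.1 CPM in the low-zone set.

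The 29 G2/M genes were at 1089 against 971.8 CPM, a ratio of 1.12 (1.03 to 1.21), which became a log2 ratio of -0.0076 when levels were scaled to all UMIs. With a mitochondrial limit of 50% the ratio was 1.57. The median level per barcode was 602 CPM in members, 370 CPM in the low-zone set and 1114 CPM in the low-mitochondrial reference. Of 9 compared, 0 were at least 1.5-fold higher or lower, beside 14.0% of all genes. The median log2 ratio of the 9 was 0.13, close to that of all genes. Mki67, the proliferation antigen, had 72 UMIs in members and 128 in the low-zone set, 81.9 against 75.8 CPM (1.08-fold, 0.80 to 1.45). Top2a, topoisomerase II, was at 72.8 against 53.3 CPM (1.37-fold, 0.98 to 1.90) and Cdk1, the mitotic kinase, at 86.4 against 78.8 CPM. The 2 parts between them were lower than both ends, at 877.5 and 861.7 CPM. The low-mitochondrial reference was at 1321 CPM for G2/M and 811.5 CPM for S phase, above every part of the zone share.

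Barcodes with a strong cell cycle signal were few in either zone. With all barcodes thinned to 1000 non-mitochondrial UMIs, at least 5 UMIs of G2/M genes were found in 5 of 186 members, 2.69% (0.88 to 6.16, Clopper-Pearson), and in 6 of 187 of the low-zone set, 3.21% (1.19 to 6.85). For S phase genes the counts were 1 of 186 and 3 of 187. In the low-mitochondrial reference, 2.68% passed for G2/M and 0.57% for S phase. The expected counts over all possible thinning draws, a calculation added after the data were seen, were 5.27 members and 5.66 barcodes of the low-zone set for G2/M, and 1.55 and 1.62 for S phase, so that the S phase counts of 1 and 3 belong to 1 draw. In percent the expected G2/M shares were 2.83, 3.03 and, in the reference, 2.79. The members' G2/M share was about that of the reference and is not read as cycling, and a zonal difference in the share of such barcodes was not detectable at this depth. At full depth the shares were 26.9% of members and 33.7% of the low-zone set for G2/M, and 16.7% and 36.4% for S phase, with the deeper set higher in each.

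One G1 gene stood apart from these lists. Ccnd1, cyclin D1, which drives entry into the cycle, had 229 UMIs in members and 217 in the low-zone set, 260.4 against 128.5 CPM, 2.03-fold (1.68 to 2.45). The low-mitochondrial reference was at 133.6 CPM, near the low-zone set. It is the gene of 3 compared from 14 of the G1 cyclins and inhibitors that was at least 1.5-fold higher. In undamaged liver Ccnd1 had 2 UMIs in each end of the zone share. Cdkn1a, the p21 inhibitor, had 52 against 78 UMIs (1.28-fold, 0.88 to 1.84).

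**Figure D3:**
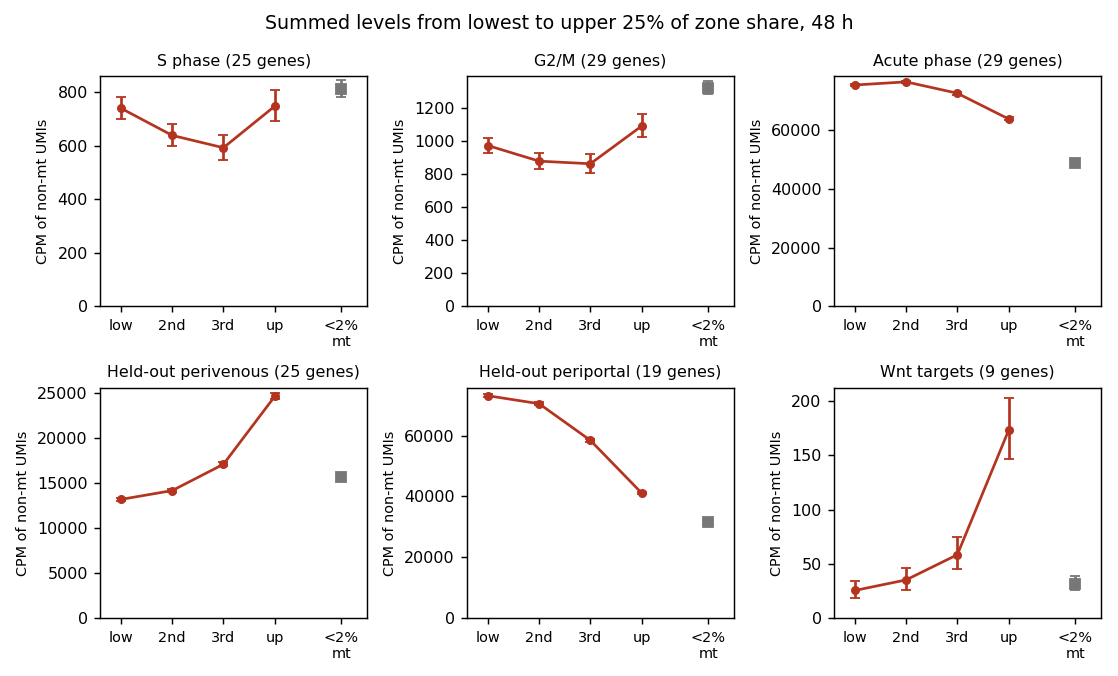
Summed CPM of 6 gene lists in 4 equal parts of the barcodes ranked by zone share at 48 h (circles, lowest to upper) and in the 522 barcodes under 2% mitochondrial UMIs (squares), with 95% Poisson intervals. S phase is at 739.6 CPM in the low-zone set and 747.1 CPM in members, while Wnt targets reach 172.8 CPM in the members.

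The acute phase response, the secretion of plasma proteins under cytokine signals, was not uniform across the zones. The 29 genes together made up 63846 CPM in members and 75402 CPM in the low-zone set, a ratio of 0.85 (0.84 to 0.86). Hpx alone held 9215 of their 56149 UMIs in members and 36939 of 127326 in the low-zone set, so the sum leaned on a single gene. Of 23 compared, 3 were at least 1.5-fold higher in members and 4 lower, beside 9.0% of all genes higher and 4.97% lower. Their median log2 ratio was -0.14, with an interval over the genes of -0.46 to 0.20 that included equality. In single barcodes the summed level ran from 30121 to 187198 CPM in members, with a median of 63805, and from 37016 to 143130 CPM with a median of 78053 in the low-zone set. The low-mitochondrial reference was at 48788 CPM.

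The serum amyloid A genes and an orosomucoid were the 3 that were higher. Saa1 was at 9005 CPM in members and 5054 CPM in the low-zone set (1.78-fold, 1.73 to 1.84), Saa2 at 6273 and 3417 CPM (1.84-fold). Orm2, an acid glycoprotein, was at 1068 against 370.1 CPM (2.88-fold, 2.60 to 3.20). Saa1 and Saa2 are near-identical neighbours on chromosome 7, and Orm2 has close copies on chromosome 4, so that reads shared between copies could move each value. In the low-mitochondrial reference Saa1 was at 8740 CPM, Saa2 at 8004 CPM and Orm2 at 560.9 CPM, and for both Saa genes that lies above the low-zone set. The part of free RNA in the Saa difference was not tested.

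The 4 acute phase genes at least 1.5-fold lower encode plasma transport, clotting and matrix-binding proteins. Hpx, hemopexin, was at 10478 against 21875 CPM (0.48-fold, 0.47 to 0.49), the fibrinogen chain Fgb at 3271 against 5170 CPM (0.63-fold), ceruloplasmin Cp at 740.2 against 1204 CPM (0.61-fold) and Itih3 at 1350 against 2295 CPM (0.59-fold). Fgg and Fga, at 0.69-fold and 0.77-fold, did not pass the limit. Haptoglobin (Hp, 0.91-fold), Orm1 (0.97-fold), complement C3 (0.87-fold) and lipocalin Lcn2 (0.82-fold) differed less, and hepcidin (Hamp) was at 1.27-fold. Of complement genes outside the acute phase list 4 of 13 compared were at least 1.5-fold lower and of coagulation genes 2 of 13, with 0 higher in either, beside 4.97% of all genes lower. The median log2 ratios were -0.36 and -0.27, so that most of these genes lay below equality without passing the limit. C9 was at 0.42-fold and plasminogen (Plg) at 0.61-fold. Alb itself was at 33504 against 58735 CPM (0.57-fold), and the 5 negative acute phase genes were together at 0.71-fold. Alb was at 22124 CPM in the low-mitochondrial reference.

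**Figure D4:**
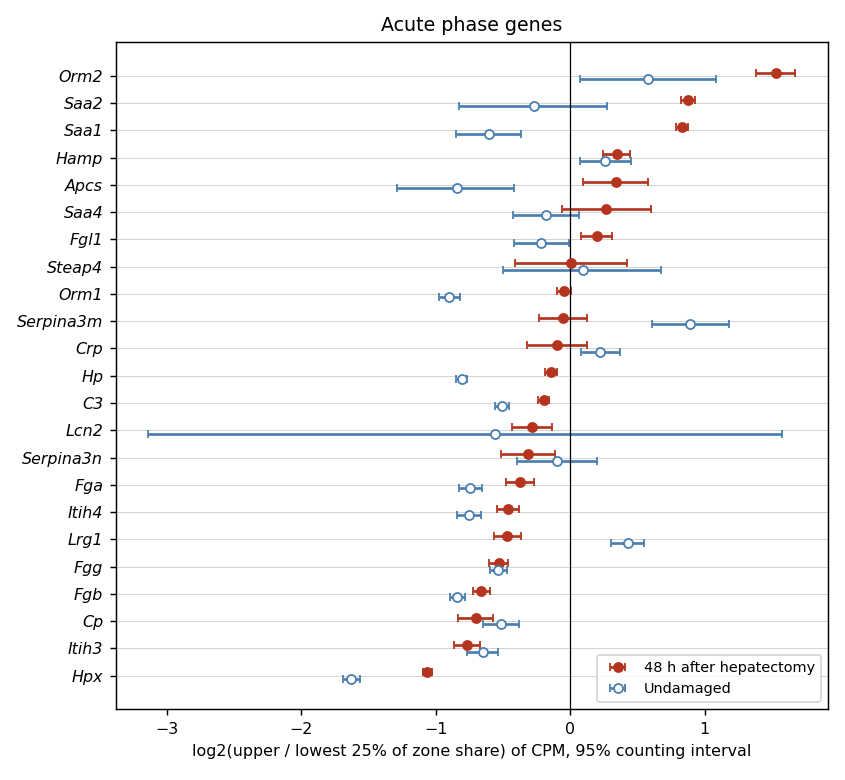
Ratio of the upper to the low-zone set, as log2 of CPM with 95% counting intervals, for the 23 compared acute phase genes at 48 h (filled) and in undamaged liver (open). Orm2, Saa2 and Saa1 lie to the right at 48 h (2.88-fold, 1.84-fold and 1.78-fold) and Hpx lies lowest at both times.

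Further gene groups are described by their sums and counts. Cholesterol synthesis genes were at 3366 against 2371 CPM in sum (1.42-fold, 1.35 to 1.49), with 6 of 18 compared genes at least 1.5-fold higher and 1 lower, beside 9.0% of all genes higher and 4.97% lower. Their median log2 ratio was 0.38, with an interval over the genes of -0.017 to 0.83 that included 0. Fdft1 (2.09-fold), Hmgcs1 (1.93-fold), Fdps (1.85-fold) and Msmo1 (1.83-fold) were among the 6. In heme synthesis, which supplies the P450 enzymes, 3 of 6 were higher (Cpox 1.84-fold, Alad 1.79-fold, Fech 1.75-fold) and the first enzyme Alas1 was at 1.01-fold, and the interval of the median, -0.12 to 0.84, also included 0. Among transcription factors, the xenobiotic receptor Nr1i3 (CAR) was 2.99-fold higher and Cebpb 1.85-fold higher, while Foxa2 was at 0.62-fold and Hnf4a at 0.88-fold. Proline dehydrogenase (Prodh) was 3.35-fold higher and Igfbp1 2.63-fold. Of 5 urea cycle genes outside the rule 1 was lower, Arg1 at 0.62-fold, and Cps1 was at 0.70-fold. Nuclear genes of oxidative phosphorylation were alike in sum (0.98-fold) with 0 of 20 past 1.5-fold.

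Ribosomal protein genes were 1.39-fold higher in sum, and 1.23-fold with levels scaled to all UMIs. Of 78 compared, 19 were at least 1.5-fold higher and 0 lower, beside 9.0% of all genes higher and 4.97% lower. From the low-zone set to the members the summed ribosomal level was 55223, 59893, 71331 and 76728 CPM, and the low-mitochondrial reference was at 131536 CPM. The members lay nearer to that reference in ribosomal, albumin and periportal levels, and they were also the shallower set. The low-zone set lay nearer to it in held-out perivenous genes (13205 CPM, 15728 in the reference and 24660 in members). It also lay nearer in Wnt targets (25.5 CPM, 31.6 in the reference and 172.8 in members). The part of free RNA in these ratios was not tested. With both sets drawn only from barcodes with at least 3000 non-mitochondrial UMIs, a limit chosen after the data were seen, the ribosomal ratio was 1.37, the Alb ratio 0.61, the G2/M ratio 1.14 and the S phase ratio 1.04.

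**Figure D5:**
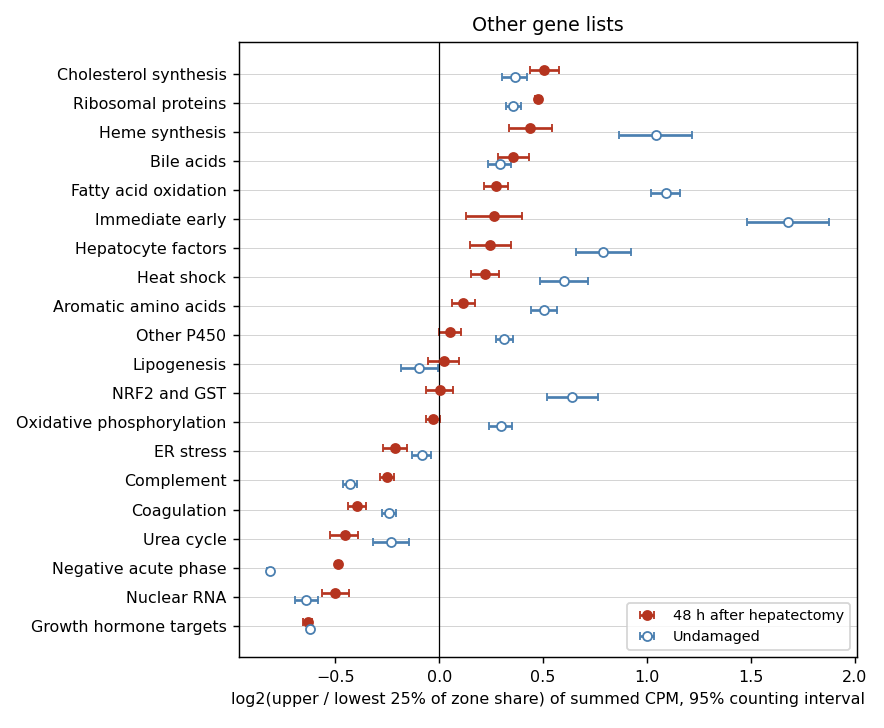
Ratio of the upper to the low-zone set in summed CPM, on a log2 axis with 95% counting intervals, for 20 further gene lists at 48 h (filled) and in undamaged liver (open). Cholesterol synthesis (1.42-fold at 48 h) lies at the top and growth hormone targets (0.64-fold) at the bottom.

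Markers of other liver cells were scarce but not equally divided. Members held 59 UMIs of stellate and stromal markers against 11 in the low-zone set, 67.1 against 6.51 CPM, and the low-mitochondrial reference was above both at 146.4 CPM. Of these, Dcn, a matrix proteoglycan, gave 32 against 2 and Rgs5, a pericyte marker, 13 against 0. Endothelial markers had 74 against 39 UMIs (84.1 against 23.1 CPM, and 26.8 CPM in the reference), and 5 genes of the central vein endothelium, the Wnt source of the lobule, had 20 against 2 (22.7 against 1.18 CPM, and 6.70 CPM in the reference), with Wnt2 at 5 against 0, Rspo3 at 4 against 0 and Wnt9b at 0 in both. Kupffer cell markers had 54 against 22 UMIs (61.4 against 13.03 CPM, and 39.5 CPM in the reference). Cholangiocyte markers had 11 against 166, mostly Spp1 and Sox9, while Epcam and Cldn4 were at 0 in both. Markers of T and NK cells and of B cells were at 0 in both sets, and neutrophil markers at 0 and 1. In all, 9 of 186 members and 1 of 187 of the low-zone set held at least 5 UMIs of a list of another cell type other than cholangiocytes. The part of attached or mixed cells in these counts was not tested.

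Glul marks the innermost layer around the central vein. The members were split on it to describe how they varied. At 1000 UMIs each, 55 members had a Glul UMI and 131 had none. Their median depths were 3323 and 3696 non-mitochondrial UMIs, and their median zone shares 82.4% and 64.3%, so that position on the zone share was not matched. The rule genes are given as a description, since they chose the members. Among them Slc1a2 was at 614.4 CPM in members with Glul and 98.4 CPM in those without (6.24-fold), Rhbg at 3.37-fold, Cyp2e1 at 1.72-fold, Oat at 1.64-fold and Lect2 at 0.98-fold. Since a rule gene made the split and zone share was not matched, the ratios outside the rule are also a description. Their intervals cover counting error and not the spread between barcodes. Outside the rule, Wnt target UMIs were at 2.17-fold (1.55 to 3.02), among which Rnf43 was at 3.29-fold, and Cyp2a5 was at 1.73-fold. Cyp2c29 (0.91-fold) and Mup17 (0.95-fold) had intervals that included 1. S phase genes were at 998.9 CPM in members with Glul and 652.9 CPM in those without, 1.53-fold (1.30 to 1.80). The member with the most S phase UMIs supplied 25.5% of those of the Glul set. A check added after the data were seen left out the member with the highest S phase CPM of each set. In the Glul set this was a different member, and the ratio was 1.44 (1.22 to 1.71). No ratio was drawn without the member that held 25.5%. G2/M genes did not follow, at 1032 and 1111 CPM (0.93-fold, 0.80 to 1.08). With the rule applied without barcodes rich in other cell type markers, members held 550 S phase UMIs in place of 657. The Glul split was not drawn without those barcodes.

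The same contrast was drawn in undamaged liver with its own percentiles, 529 upper and 526 lowest barcodes at medians of 1324 and 1870 non-mitochondrial UMIs. There 472 of 1843 genes (25.6%) were at least 1.5-fold higher in the upper set and 114 (6.19%) lower, and the median log2 ratio was 0.28. All 20 compared perivenous genes outside the rule were higher, with a median log2 ratio of 2.35 and a summed ratio of 3.38 (3.31 to 3.46), against 1.67 and 1.87 at 48 h. Periportal genes had a median of -1.44 in undamaged liver, near the -1.49 at 48 h. Because the undamaged limits lie at other zone shares, the sets at the 2 times are not matched in position.

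Set beside the upper set of undamaged liver, the 48 h members had less of most perivenous rule genes. Glul was at 647 against 2024 CPM, Cyp2e1 at 2403 against 9175, Cyp1a2 at 515.1 against 2307 and Rhbg at 79.6 against 353.7, whereas Oat was higher at 1984 against 1090 CPM. Of the 22 held-out perivenous genes compared between times, 10 were at least 1.5-fold lower and 7 higher, with 22.7% and 39.9% of all 2020 genes on those sides. Cyp2c29 was at 1931 against 4157 CPM, Cyp2a5 at 2018 against 1747 CPM, and Cyp7a1 at 485.5 against 238.4 CPM. Periportal genes were higher in sum (41108 against 25729 CPM). Saa1 was at 9005 against 264.6 CPM and Saa2 at 6273 against 57.6 CPM, and Ccnd1 at 260.4 against 2.62 CPM. Mki67 and Top2a had 0 UMIs in the undamaged upper set, and taking the floor of 3 UMIs over that set, they were at least 20.8-fold and 18.5-fold higher in members. G2/M genes together were at 1089 against 15.7 CPM. The low-zone set, beside the lowest set of undamaged liver, had the same G2/M ratio, 69.3-fold in both. The G2/M change was thus not particular to members. Perivenous rule genes were at 0.42-fold in the low-zone set and 0.38-fold in members. Those genes chose the sets, at limits that differ between times, so their ratios are a description only. S phase genes were at 12.5-fold in the low-zone set and 7.71-fold in members, and held-out perivenous genes at 1.33-fold and 0.73-fold. These differences compare 2 libraries and cannot be told apart from the preparation of each.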

How the data were processed

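Hepatocytes from undamaged liver and from liver 48 h after PHx were each sequenced as 1 droplet library. The authors processed reads with Cell Ranger against mm10 (the submitters' processing notes give both names, and the Cell Ranger version is not given in the sources used here) and deposited raw UMI counts per gene and barcode for 27998 genes. The study excluded high-mitochondrial cells and possible doublets later, and these steps are not in the deposited matrices, so that doublets were not removed here beyond an alternative in which Scrublet marked 11 of 1586 barcodes. Groups came from the labelled time point. There was 1 library per group, so no p-value was computed.

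Counts were summed over the barcodes of a set and divided by non-mitochondrial UMIs. Exact Poisson intervals were used for levels, conditional binomial intervals for ratios and Clopper-Pearson intervals for shares, at 95%, and all cover counting error only. Genes with at least 100 UMIs over both sets were compared on log2(CPM + 5), and 1.5-fold marked a gene as higher or lower. The comparison was tested on simulated data. Those were Poisson counts for summed sets with planted folds, and they held no spread between barcodes. Genes named are the rule genes, the 12 highest and 12 lowest ratios and, for each of 45 lists, the 6 most abundant and 4 largest ratios, with all members of the zonal, Wnt, cell cycle and acute phase lists. The members and lists were chosen with earlier results of these data known. List symbols without an entry (3) were left out. Coordinates came from GENCODE M21 by gene identifier (395 of 395 named genes matched). Thinning drew UMIs without replacement with a fixed seed. Alternatives changed the mitochondrial limit, zone rule, scaling, added CPM, UMI minimum and excluded barcodes. Python 3.11.15, NumPy 2.4.6, SciPy 1.17.1, pandas 2.3.3 and Scanpy 1.11.5 were used.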

Additional observations from a re-analysis of the deposited data

Results flagged for a closer look

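Several ratios of the upper to the low-zone set lay on opposite sides of equality at 48 h and in undamaged liver, with counting intervals that left out 1 at both times. They were picked for this pattern among the genes and lists examined. With 1 library per time, the difference between times was not tested. Equality is not the middle of all genes, whose median log2 ratio was 0.11 at 48 h and 0.28 in undamaged liver. Scaling to all UMIs lowers every 48 h ratio (Saa1 from 1.78 to 1.58). The side of 48 h ratios close to 1, such as that of Ttr, therefore depends on the scaling. For the acute phase genes, Saa1 was at 1.78 at 48 h and 0.66 in undamaged liver, Apcs at 1.26 and 0.56, Fgl1 at 1.15 and 0.86, and Lrg1, in the opposite order, at 0.72 and 1.34. Ttr, a negative acute phase protein, was at 1.10 and 0.74. Among nuclear genes of oxidative phosphorylation, Sdhb was at 0.71 at 48 h and 1.75 in undamaged liver, Atp5b at 0.84 and 1.54, and Uqcrc1 at 0.79 and 1.31. Cpt1a, the carnitine palmitoyltransferase of fatty acid oxidation, was at 0.77 and 1.36. The P450 Cyp2b10 was at 0.50 and 4.08, Cyp2c70 at 1.21 and 0.87, and the oxysterol hydroxylase Cyp7b1 at 0.85 and 1.17. Sc5d of cholesterol synthesis was at 1.26 and 0.85. The list of progenitor and YAP target genes was at 0.92 in sum at 48 h and 1.68 in undamaged liver.

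Kupffer cell markers in sum were at 4.71 at 48 h and 0.34 in undamaged liver, on 54 and 22 UMIs at 48 h. Lyz2 was at 7.68 at 48 h and 0 in undamaged liver, and Vsig4 at 5.76 and 0, each on 8 or fewer UMIs in members. One member held 80% of the UMIs of Marco in that set.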

How the results depend on the processing

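No paired analysis was possible because each time point had 1 library and no result came from a test. For the same reason no replicate could be left out. The median log2 ratios of held-out perivenous, held-out periportal and acute phase genes stayed within their main intervals under all 20 alternatives, ranging from 1.47 to 2.12, from -1.71 to -1.19 and from -0.31 to -0.12, as did the 2 held-out medians of undamaged liver under 4 alternatives. The alternatives without cholangiocyte-marker barcodes, with at least 3000 non-mitochondrial UMIs and with expected thinned shares were chosen after seeing the data. The log2 ratio of S phase genes left its counting interval with a mitochondrial limit of 50% (0.29), limits at each 33% of zone share (-0.15), CPM of all UMIs (-0.16), and without barcodes rich in other cell type markers (-0.17, or -0.18 with cholangiocyte markers included). That of G2/M genes left its interval with a limit of 20% (0.011), a limit of 50% (0.65) and CPM of all UMIs (-0.0076). CPM of all UMIs moved the median of all genes from 0.11 to -0.042 and the counts past 1.5-fold to 109 higher and 245 lower, from 277 and 153. Other counts higher were 169 without zone genes and the 20 most abundant genes in the scale and 179 with 20 CPM added, and minimums of 50 UMIs and 1 UMI gave 449 higher and 279 lower, and 1214 and 804. The cause of these moves was not tested, except that the UMI minimum sets how many genes are compared (5092 and 12837). The 1 reversal was nuclear RNA genes with the upper and lowest 10% of zone share, at 0.21.

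Shares of barcodes with cell cycle UMIs depended on the count limit. Without thinning they were 16.7% of members and 36.4% of the low-zone set for S phase, and 26.9% and 33.7% for G2/M. With at least 3 UMIs they were 6.45% and 8.02% for S phase and 10.2% and 10.2% for G2/M, where the expected shares over all thinning draws were 4.55% and 6.09%, and 10.3% and 9.71%. With 500 UMIs per barcode or at least 10 UMIs all were 0, and the upper end of the Clopper-Pearson interval was 1.96% for members and 1.95% for the low-zone set. The S phase share of members was 0 with the upper and lowest 10% of zone share and without barcodes rich in other cell type markers, cholangiocyte markers included or not. The G2/M share of the low-zone set was 0.79% with a mitochondrial limit of 50%. Depth limits every statement on cycling, since a barcode of 1000 UMIs rarely holds 5 from either list.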
